A study of Drosophila melanogaster with 12 samples.

Results

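Drosophila melanogaster larvae of the third instar labelled as HNF4 null were compared after 24 h without food and after normal feeding. The comparison was made up by label: 3 one-colour Affymetrix arrays labelled as starved mutants stood against 3 labelled as fed mutants, 6 of the 12 arrays of the series. All 9669 probe sets of the authors' dChip intensity table were tested, and 9100 further probe sets were tested in the series matrix, which alone holds them. The mutants carried HNF4(del33)/HNF4(del17), a pair of deletion alleles present in every tissue. The other 6 arrays, used only to say where the mutant response differed, were 3 fed and 3 starved control samples of the genotype EP2449(precise excision)/KG08976(precise excision), the 2 P-element lines after clean removal of their insertions. All larvae were raised on standard food to the late second instar, were then washed and either fed or kept for 24 h on paper soaked in PBS, and only healthy-looking animals that had molted to the third instar were taken. The RNA came from whole larvae, so each value is an average over all tissues. Less RNA per cell and fewer cells of a type cannot be told apart in such samples.

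HNF4 is a nuclear receptor of the fat body, gut, oenocytes and Malpighian tubules, and is known for activating genes of fatty acid oxidation. A starved larva normally closes down the synthesis of fat, protein and cuticle, and releases stored lipid through lipases. The fatty acids then enter mitochondria by the carnitine shuttle and are shortened by β-oxidation. In parallel, low insulin and TOR signalling lets the transcription factors FOXO and REPTOR switch on starvation genes, autophagy among them.

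Replicate arrays of the 6 correlated at 0.978 to 0.991 among fed and 0.984 to 0.993 among starved mutants on the log2 scale. The first principal component of these arrays took 89.3% of the variance and separated fed from starved larvae, with starved replicate 2 nearest to the fed arrays. Fed replicate 1 stood apart in a few genes, such as Lsp2, a storage protein of the fat body, which read 13857, 328 and 780 on the fed and 287, 374 and 305 on the starved arrays. Array medians were 483 to 507 in fed and 539 to 545 in starved mutants. The Hnf4 probe set read 1641, 1540.4 and 1482 on the fed mutant arrays and 2784, 2938 and 3189.6 on the starved mutant arrays, against 1327, 1207 and 1228 on the fed and 1736, 1818 and 1937 on the starved control arrays. Its signal was present in all 4 groups and higher in starved than in fed mutants (log2 change 0.93 ± 0.08, adjusted p = 1.67e-06), although the series matrix put the change at 0.17 (adjusted p = 0.266). Where the deletions lie relative to the probes is not known here, so its signal is no check of the genotype.

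Starvation changed most of the probe sets of the dChip table, while 8.38% of the 9100 outside it were called. Of the 9669 probe sets, 3622 rose and 3700 fell at an adjusted p under 0.05 (limma, Benjamini-Hochberg over all 9669), which is 37.5% and 38.3% of them and 75.7% in all. At least a 2-fold change was estimated for 1158 that rose (12%) and 836 that fell (8.65%), 20.6% of the table. Taking each of the 7442 named genes by its brightest probe set, 76.6% were called, 39.1% as higher and 37.5% as lower, and 21.8% were called with at least a 2-fold change, 12.6% as higher and 9.26% as lower. A count of called members of any gene group below is therefore to be read against 39.1% higher and 37.5% lower, not against zero. With the series matrix values of the same 9669 probe sets fewer were called, 5562, of which 3288 were higher and 2274 lower. Group counts given below for the series matrix values are to be read against these totals. The log2 change had a median of 0.00 over genes, with a 5th percentile of -1.32 and a 95th of 1.55, and the median standard error over probe sets was 0.11. At least 4-fold changes were seen for 182 genes that rose and 105 that fell. The p-values measure the spread between samples prepared in triplicate, which may be technical in part.

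**Figure D1:**
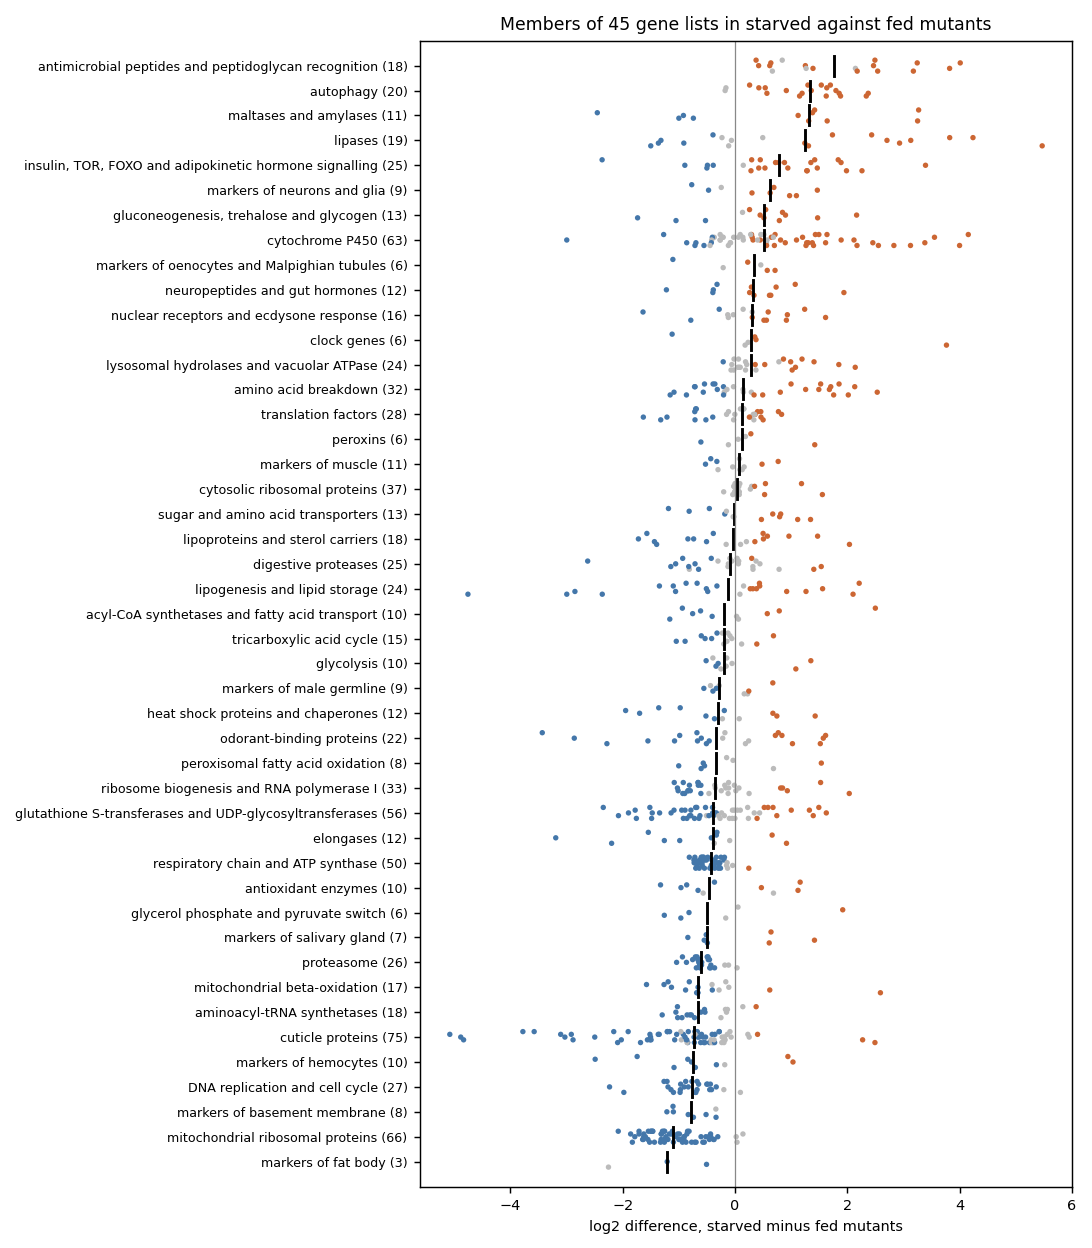
Log2 change from fed to starved mutants (x axis) of every member of 45 gene lists measured in the dChip table, ordered by list median, with the number of members in brackets. Orange points were called higher, blue points lower and grey points were not called, and the black bar is the list median, which runs from -1.21 for the marker list of the fat body to 1.77 for antimicrobial peptides and peptidoglycan recognition. The fat body list has 3 members, and without fed replicate 1 its median is -0.66 and that of mitochondrial ribosomal proteins (-1.20) lies below it.

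FASN1, ACC and AcCoAS, enzymes of fat synthesis, fell steeply. FASN1, the fatty acid synthase, read 20694, 23518 and 20889 on the 3 fed and 861, 936 and 638 on the 3 starved mutant arrays. The groups did not overlap and FASN1 fell by more than an order of magnitude (log2 change -4.76 ± 0.13, adjusted p = 2.43e-09). ACC, the acetyl-CoA carboxylase that makes its substrate, read 5473, 8883 and 5925 when fed and 773, 944 and 777 when starved (log2 change -2.996 ± 0.20, adjusted p = 3.33e-07). AcCoAS, which makes acetyl-CoA from acetate, went from 8741, 10617 and 8462 to 1347, 1292 and 1201 (log2 change -2.85 ± 0.14, adjusted p = 4.76e-08). For all 3 genes every starved value lay far below every fed value. Lsd-1, the perilipin that coats lipid droplets, fell from 3484, 3744 and 3511 to 572, 973 and 603 (log2 change -2.36 ± 0.16, adjusted p = 4.04e-07), and Agpat3, an acyltransferase of phosphatidic acid synthesis, fell as well (log2 change -1.35 ± 0.13). Of the 24 measured members of the lipogenesis and storage list, 12 fell and 10 rose, with a median log2 change of -0.12, so the fall was not shared by the whole list.

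Regulators were among the members that rose. Lpin, the phosphatidate phosphatase lipin, rose from 534, 537 and 578 to 2508, 2096 and 3143 (log2 change 2.21 ± 0.14, adjusted p = 1.72e-07). The sugar-sensing factor bigmax, the partner of Mondo, rose from 659, 693 and 699 to 3233, 2708 and 2896 (log2 change 2.10 ± 0.09, adjusted p = 1.6e-08). Mondo itself and SREBP, the activator of lipogenic genes, rose far less (log2 changes 0.32 and 0.38). FASN1 and ACC are known as SREBP targets in flies and mammals. Desat1, the main acyl-CoA desaturase, fell by a smaller amount (log2 change -0.67 ± 0.11).

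Lipases moved the other way, and 3 of them were among the strongest rises of the whole table. Lip3, an acid lipase, read 104, 131 and 107 on fed and 5519, 4757 and 4837 on starved arrays (log2 change 5.47 ± 0.18, adjusted p = 6.09e-09). CG6271, a lipase-like gene of the pancreatic lipase family, read 563, 630.1 and 529 and 12567, 9301 and 10842 (log2 change 4.24 ± 0.18, adjusted p = 1.95e-08). CG8093, an acid lipase relative of Lip3, read 400.1, 161 and 296 and 4323, 3557 and 3526 (log2 change 3.83 ± 0.51, adjusted p = 4.72e-05). Every starved array was above every fed array for all 3, and the 2 groups were far apart. bmm, the brummer triglyceride lipase of the lipid droplet, rose from 735, 622 and 761 to 6121, 5729.5 and 6674 (log2 change 3.13 ± 0.16, adjusted p = 6.67e-08), and Lip4 rose from 230.4, 181 and 229 to 1905, 1380.3 and 1615 (log2 change 2.93 ± 0.21, adjusted p = 4.71e-07). CG6283 rose from 3031, 836 and 1675 to 7665, 8747 and 9999 (log2 change 2.43 ± 0.51), with fed replicate 2 the lowest. The falls in the same list were CG6295, CG6296 and CG17192, also of the pancreatic lipase family, with log2 changes of -1.50 ± 0.30, -1.36 ± 0.31 and -1.32 ± 0.14, and 2 further members. In all 10 of 19 measured lipases rose, each at least 2-fold, and 5 fell, a list median of 1.24; with the series matrix values 10 rose and 2 fell. The lower level of Lip3, and of other genes whose dimmer group averaged under 251, the 25th percentile of the dimmest array, is close to background, so the size of such a fold is uncertain.

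Entry of fatty acids into mitochondria and their breakdown did not move together. whd, the carnitine palmitoyltransferase of the outer membrane and the entry step of the shuttle, read 558, 481 and 625 on fed and 3529.7, 3266 and 3187 on starved arrays (log2 change 2.59 ± 0.10, adjusted p = 1.29e-08). pdgy, an acyl-CoA synthetase, also rose in every starved array, from 909.7, 682 and 804 to 4273, 4668 and 4536 (log2 change 2.50 ± 0.14, adjusted p = 9.18e-08). The inner-membrane carnitine carrier colt, which acts after whd, instead read 1795, 1805 and 1726 when fed and 755, 901 and 782 when starved (log2 change -1.13 ± 0.09, adjusted p = 1.41e-06). scu, a hydroxyacyl-CoA dehydrogenase of mitochondria, fell from 2901, 2956 and 2922 to 1038, 1457 and 1196 (log2 change -1.26 ± 0.12, adjusted p = 2.83e-06). Both genes were lower in all 3 starved arrays than in any fed array. The enoyl-CoA isomerase relatives CG4594 and CG4598 fell (log2 changes -1.58 ± 0.10 and -1.19 ± 0.11), and so did Arc42, an acyl-CoA dehydrogenase (-0.88 ± 0.09), and Echs1, an enoyl-CoA hydratase (-0.81 ± 0.09). CPT2, the carnitine palmitoyltransferase of the inner membrane, did not pass the test (log2 change -0.11 ± 0.09, adjusted p = 0.295). Of the 17 measured β-oxidation genes 11 fell and 2, whd and CG9547, rose, with a median of -0.66.

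In starved controls the same 17 genes had a median log2 change of -0.04, with 5 called higher and 5 lower. The difference between the starvation responses, mutant minus control, was called for 7 of the 17, lower in mutants each time, where 2.84% of all genes were called (0.833% as lower). scu read 6255, 7201 and 6383 in fed and 6591, 6163 and 7255 in starved controls, a log2 change of 0.01 ± 0.12 that did not pass the test (adjusted p = 0.932), and the difference was -1.28 ± 0.16, adjusted p = 0.00382. colt read 3221, 2909.7 and 3265 and 3696, 3340.2 and 4077 in controls and the difference was -1.37 ± 0.13, adjusted p = 0.000721. Fed mutants were already below every control array for both genes, and starved mutants lay lower still. yip2, a thiolase, showed the same kind of difference (-1.29) where control arrays rose (1.01) while the mutant change of -0.28 did not pass the test. whd rose in controls too, by a log2 change of 2.03 ± 0.10, and its difference between genotypes was not called (0.56 ± 0.15, adjusted p = 0.0765). Leaving out each array in turn gave 4 to 7 called differences in the list, and the series matrix values gave 2.

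**Figure D2:**
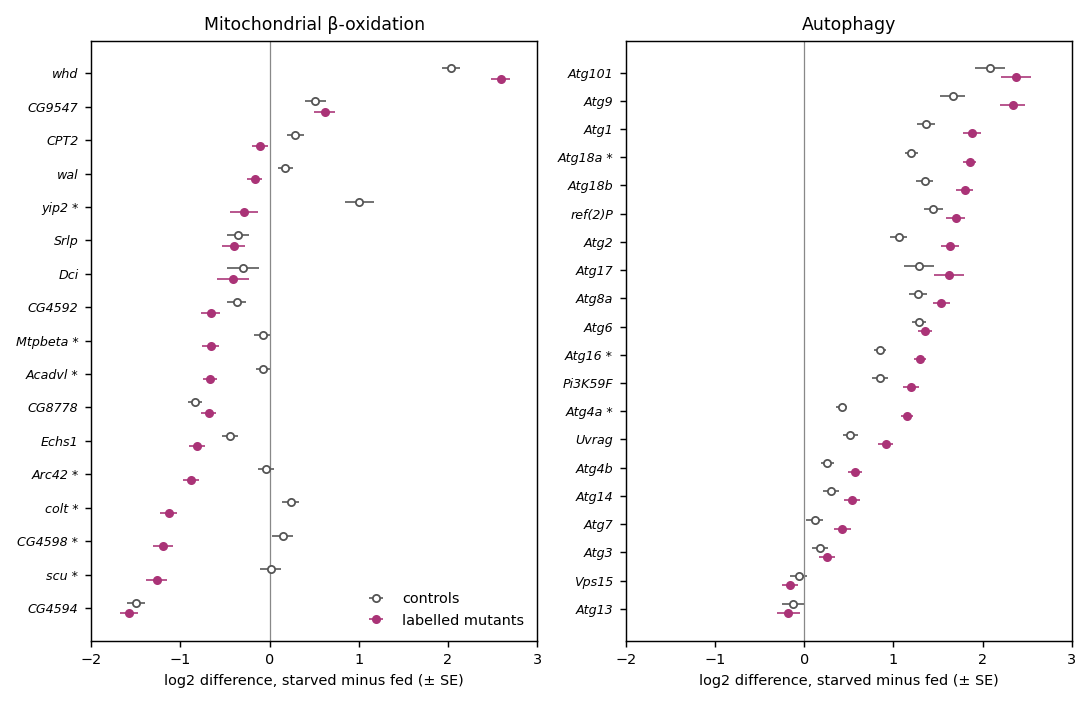
Log2 change from fed to starved larvae, with its standard error, for the 17 measured genes of mitochondrial β-oxidation and the 20 of autophagy, in mutants (filled, n = 3 arrays per group) and controls (open). An asterisk marks a called difference between the genotypes, lower in mutants for 7 β-oxidation genes and higher in mutants for 3 autophagy genes.

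Peroxisomal genes were split. Acox57D-p, a peroxisomal acyl-CoA oxidase, rose from 550.4, 450.1 and 601 to 1106, 1632 and 2023 (log2 change 1.54 ± 0.23, adjusted p = 0.000127), whereas its neighbour in name Acox57D-d fell from 341, 307 and 351 to 167, 178 and 154 (log2 change -1.002 ± 0.09, adjusted p = 2.67e-06). The paralogs therefore moved in opposite directions in the same larvae. Mfe2, the multifunctional enzyme of peroxisomal β-oxidation, fell (-0.54 ± 0.16, adjusted p = 0.01), as did Acox3 (-0.60 ± 0.23) and ScpX (-0.56 ± 0.19), whose calls were lost with the series matrix values. The Acox3 call was also lost on leaving out any of 4 of the 6 mutant arrays (changes of -0.50 to -0.61), and that of ScpX without fed replicate 1 (-0.49) or starved replicate 1 (-0.50). Of 8 measured members 4 fell and 1 rose, and without fed replicate 1 2 fell and 2 rose. Among the 6 measured peroxins, which build the organelle, 2 rose and 1, Pex19, fell (log2 change -0.61). Of 4 further peroxins found only in the series matrix 2 fell and 2 were not called. Pex7, the import receptor of peroxisomal proteins, rose from 193, 197 and 185 to 595, 394 and 579.9 (log2 change 1.42 ± 0.14, adjusted p = 5.27e-06). Pex5, the other import receptor, rose by 0.28 ± 0.07, less than in controls (0.88 ± 0.07), and the difference was called (-0.59 ± 0.10, adjusted p = 0.0118); its call in mutants was lost with the series matrix values and after median centring. Among acyl-CoA synthetases, Acsf2 fell in mutants from 2635, 2556 and 2597 to 1245, 1286 and 977 (log2 change -1.16 ± 0.13), where the control change was 0.01 ± 0.13, a called difference (-1.17 ± 0.19, adjusted p = 0.0117).

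Lipid elongation and transport genes fell as often as they rose or more often. CG8534, a fatty acid elongase, read 1272, 971 and 958 on fed and 103, 185 and 81.7 on starved arrays (log2 change -3.19 ± 0.25, adjusted p = 7.63e-07). CG16904, another elongase, fell from 506, 604 and 499 to 107, 127 and 116 (log2 change -2.20 ± 0.14, adjusted p = 2.66e-07), against -0.50 ± 0.14 in controls, a called difference of -1.70 ± 0.20, adjusted p = 0.00236. Of 12 measured elongases 8 fell and 2 rose, and the rise of eloF turned into a fall with the series matrix values. fabp, the fatty acid binding protein, fell from 18856, 13837 and 16549 to 3628, 7314 and 4550.1 (log2 change -1.72 ± 0.22, adjusted p = 3.81e-05), and Mtp, the transfer protein that loads lipoproteins, fell from 1856, 1772 and 1736 to 584, 855 and 629 (log2 change -1.40 ± 0.13, adjusted p = 2.53e-06). The lipoprotein receptor LpR1 rose from 768, 997 and 826 to 2314, 2365 and 2466 (log2 change 1.47 ± 0.11, adjusted p = 5e-07). The Npc2 family of small sterol-binding proteins split within itself: Npc2c rose from 1037, 524 and 888 to 2756, 2752 and 4424 (log2 change 2.04 ± 0.40, adjusted p = 0.000764), Npc2d fell from 3333, 1842 and 3454 to 871, 1443 and 854 (log2 change -1.43 ± 0.39, adjusted p = 0.00643), and Npc2g fell as well (-1.57 ± 0.14). Npc2e is the member that opposed the controls, with a log2 change of -0.74 ± 0.24 in mutants and 0.72 ± 0.24 in controls (difference -1.46 ± 0.34, adjusted p = 0.0494). Its call in mutants was lost with the series matrix values and on leaving out fed replicate 1 or 3 or starved replicate 1, where the change was -0.55 to -0.66.

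Genes that make and spare sugar mostly rose. Pepck1, phosphoenolpyruvate carboxykinase and the first committed step of gluconeogenesis, read 7059.8, 3726 and 6906 when fed and 15633, 17080.4 and 14536 when starved (log2 change 1.47 ± 0.22, adjusted p = 0.000114). Its paralog Pepck2 rose from 523, 246 and 673 to 1884, 2459 and 1689.6 (log2 change 2.17 ± 0.29, adjusted p = 4.87e-05). fbp, the fructose bisphosphatase, rose (0.90 ± 0.12), as did Pgm1, a phosphoglucomutase (0.85 ± 0.11), and Treh, the trehalase (0.79 ± 0.13). PCB, the pyruvate carboxylase, went the other way, from 9664, 11594 and 11014 to 5096, 6049 and 4506 (log2 change -1.05 ± 0.11, adjusted p = 9.95e-06). CG5177, a trehalose phosphatase, fell too, from 13649, 12842 and 12119 to 3295, 4876 and 3586 (log2 change -1.73 ± 0.15, adjusted p = 2.17e-06). In all, 9 of 13 measured members rose and 3 fell, a median of 0.52. Pdk, the kinase that shuts pyruvate dehydrogenase off, read 1218, 879 and 1072 and 4003, 3922 and 3959.8 (log2 change 1.92 ± 0.15, adjusted p = 7.61e-07), while muc, a subunit of that dehydrogenase, fell from 7268, 8385 and 7429.6 to 3709, 4138 and 3971 (log2 change -0.96 ± 0.08, adjusted p = 1.12e-06) and so did the pyruvate carrier Mpc1 (-0.82 ± 0.09). Gpdh1, the cytosolic glycerol phosphate dehydrogenase, fell from 9206, 13039 and 11089 to 4645, 4995 and 4187 (log2 change -1.26 ± 0.13, adjusted p = 5.89e-06).

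Glycolysis itself changed little. Hex-A, a hexokinase, rose from 861, 1101 and 963 to 2261, 2580.3 and 2599.8 (log2 change 1.35 ± 0.11, adjusted p = 9.3e-07) and Pfrx, the bifunctional regulator of glycolytic flux, rose by 1.08 ± 0.10. The 8 other measured enzymes had log2 changes between -0.51 and -0.05, of which Pglym78, Eno and Pgk were called lower. After median centring 6 of the 10 were called lower instead of 3. The list of the tricarboxylic acid cycle also holds related enzymes outside the cycle. One is Idh, the cytosolic NADP isocitrate dehydrogenase, which fell from 16257, 14101 and 15109 to 6960, 8467 and 6682 (log2 change -1.05 ± 0.10, adjusted p = 3.47e-06). Idh fell more than in controls (-0.37 ± 0.10, difference -0.68 ± 0.14, adjusted p = 0.0338). Men, the malic enzyme, which like Idh supplies NADPH, fell from 9789, 10100.4 and 8867 to 4699, 6896 and 4264 (log2 change -0.89 ± 0.15, adjusted p = 0.000288). Ogdh, the oxoglutarate dehydrogenase, rose (0.69 ± 0.09). Of the 15 members 6 fell and 2 rose, and 11 fell after median centring. Digestive carbohydrases changed in both directions. Amyrel, an amylase relative, read 305, 339 and 476 on fed and 3633, 3587 and 3273 on starved arrays (log2 change 3.25 ± 0.25, adjusted p = 6.96e-07). Mal-B2, a maltase, rose from 411, 329.6 and 373 to 3552, 3850 and 3335 (log2 change 3.27 ± 0.12, adjusted p = 7.29e-09), more than in controls (2.34 ± 0.12; difference 0.93 ± 0.16, adjusted p = 0.0165). tobi, an α-glucosidase known as a target of insulin and adipokinetic hormone, rose by 1.64 ± 0.23, and Mal-A8 fell from 1924, 1538 and 2159.7 to 366, 419 and 254 (log2 change -2.45 ± 0.24, adjusted p = 4.87e-06). All 11 measured members were called, 7 higher and 4 lower.

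Genes of amino acid breakdown changed in both directions. Of 32 measured members 14 rose and 12 fell. Among enzymes of tyrosine breakdown, Tat, the transaminase, rose from 1134, 1238 and 1264 to 3287, 4056 and 4394 (log2 change 1.68 ± 0.13, adjusted p = 8.01e-07), as did the dioxygenase Hpd (1.71 ± 0.28), hgo, the homogentisate dioxygenase (2.13 ± 0.20), and Faa, the last enzyme (1.85 ± 0.14). GstZ2, one of the maleylacetoacetate isomerase paralogs, rose (1.49 ± 0.17), while its paralog GstZ1 fell (-1.09 ± 0.09). Gnmt, which spends S-adenosylmethionine on glycine, read 2594, 2771 and 2851 when fed and 15993, 15632 and 15942 when starved (log2 change 2.53 ± 0.11, adjusted p = 1.76e-08). Sardh, which acts on the product of Gnmt, rose from 1177, 741 and 979.8 to 3374, 4505 and 3739 (log2 change 2.02 ± 0.15, adjusted p = 7.52e-07), and Sam-S, the synthetase of S-adenosylmethionine, rose by 0.999 ± 0.12. Gs2, a glutamine synthetase, read 2934, 3826 and 3459 in fed and 1915, 1793 and 1874 in starved mutants, and 4158, 3312 and 3043 in fed and 4476, 4436 and 4732 in starved controls, a log2 change of -0.86 ± 0.12 against 0.39 ± 0.12 (difference -1.25 ± 0.17, adjusted p = 0.00568). Gs1, its mitochondrial paralog, changed by -0.39 ± 0.15 in mutants and 0.57 ± 0.15 in controls (difference -0.96 ± 0.21, adjusted p = 0.0413), but the mutant call was lost with the series matrix values and on leaving out any of 5 of the 6 mutant arrays (all but fed replicate 1), where the change was -0.20 to -0.41, the smallest of them without fed replicate 2.

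Amino acid carriers were divided. The transporters path and NAAT1 rose (log2 changes 1.12 ± 0.08 and 1.35 ± 0.18), with NAAT1, a nutrient amino acid transporter, going from 211, 267 and 247 to 769.8, 432 and 687. mnd, a subunit of the leucine transporter, fell from 591, 926 and 683 to 350.1, 287 and 316 (log2 change -1.18 ± 0.20, adjusted p = 0.000254), and gb, genderblind, a subunit of the cystine exchanger, fell by -0.82 ± 0.10. Of 13 measured sugar and amino acid carriers 6 rose and 4 fell.

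Most genes of nutrient signalling measured in the dChip table rose. REPTOR-BP, the partner of the TOR-repressed factor REPTOR, read 267, 219 and 321 on fed and 2811, 2502 and 3103 on starved arrays (log2 change 3.39 ± 0.20, adjusted p = 1.2e-07). Sesn, the sestrin that holds TOR back, rose from 562, 599.8 and 719 to 2859, 3148 and 2976 (log2 change 2.26 ± 0.10, adjusted p = 2.48e-08), and REPTOR rose by 1.47 ± 0.12. Each of the starved arrays was above each of the fed ones. On the insulin side, InR, the insulin receptor, rose from 538, 525 and 565 to 1539.9, 1204 and 1433 (log2 change 1.35 ± 0.10), chico, its adaptor, from 549, 653 and 618 to 2532, 1909 and 2328 (log2 change 1.89 ± 0.11, adjusted p = 1.07e-07), and Pdk1, the kinase upstream of Akt, from 525, 556 and 499 to 2124, 1865 and 2291 (log2 change 1.99 ± 0.12, adjusted p = 1.21e-07). foxo rose as well (1.29 ± 0.07), and InR and chico are known targets of FOXO. SNF4Agamma, the γ subunit of AMP-activated kinase, rose from 700.3, 677 and 768 to 2724, 2385 and 2568 (log2 change 1.84 ± 0.10, adjusted p = 1.04e-07). The exception of size was sug, a sugar-responsive zinc finger factor downstream of Mondo, which fell from 692, 1093 and 947 to 187, 217 and 128 (log2 change -2.37 ± 0.24, adjusted p = 5.85e-06). In all, 19 of 25 rose and 5 fell, a median of 0.78, against 0.51 in controls. Of 7 further members found only in the series matrix 1, ImpL2, rose, 1, mTor, fell (log2 change -0.38, adjusted p = 0.046) and 5 were not called. The response of Sesn and SNF4Agamma was larger in mutants than in controls (differences 0.78 ± 0.14, adjusted p = 0.0214, and 0.68 ± 0.15, adjusted p = 0.0411).

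Hormone genes of the brain and gut changed in both directions. sNPF, a feeding neuropeptide, read 51.4, 73.7 and 51.8 when fed and 266, 171 and 244 when starved (log2 change 1.94 ± 0.19, adjusted p = 4.96e-06), and Dh31 rose from 194, 208 and 244 to 454, 348 and 579 (log2 change 1.07 ± 0.18, adjusted p = 0.000247). CCHa2, a nutrient-dependent peptide of fat body and gut, fell from 847, 887 and 721 to 367, 306 and 381 (log2 change -1.22 ± 0.13, adjusted p = 1.12e-05). sNPF and Dh31 were dim in fed larvae, under the 25th percentile of the arrays. Of 12 measured peptides 8 rose and 4 fell, but after median centring 5 rose. With the series matrix values 6 rose and 2 fell, and Eh changed sign. The call of AstC was lost on leaving out any of 8 of the 12 arrays, and those of Burs and Mip on leaving out any of 3. Among insulin-like peptides, Ilp5 fell (-0.50 ± 0.16), Ilp8 fell (-0.39 ± 0.11) and Ilp2 rose (0.29 ± 0.08). Akh, the adipokinetic hormone, rose (0.53 ± 0.14) and its receptor AkhR fell (-0.49 ± 0.15).

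Most autophagy genes measured in the dChip table rose. Atg8a, the ubiquitin-like protein that coats autophagosomes, read 4622, 3936 and 4361 on fed and 12216, 13068 and 12166 on starved arrays (log2 change 1.54 ± 0.10, adjusted p = 2.28e-07). Atg101, a subunit of the initiating kinase complex, rose from 245, 354 and 324 to 1829.6, 1319.5 and 1620.3 (log2 change 2.37 ± 0.17, adjusted p = 3.98e-07), and Atg9, the membrane scaffold, from 545, 489 and 556 to 3193, 2170.2 and 2772 (log2 change 2.34 ± 0.14, adjusted p = 1.63e-07). Fed and starved arrays did not overlap for any of the 3. Atg1, the initiating kinase, rose by 1.88 ± 0.10, Atg18a by 1.86 ± 0.07 and ref(2)P, the fly form of the cargo adaptor sequestosome, by 1.70 ± 0.11. In all 18 of 20 measured members rose, 13 at least 2-fold, and 0 fell, also at an unadjusted p under 0.05 (limma); the exceptions Atg13 and Vps15 had log2 changes of -0.18 and -0.16 that did not pass the test. Of 4 further members found only in the series matrix, Atg5, Atg8b, Atg10 and Atg12, none was called (limma, adjusted p of 0.285 or more), also at an unadjusted p. The list median was 1.33 in mutants and 0.95 in controls, and 3 members, Atg18a, Atg4a and Atg16, had a response called larger in mutants (differences 0.66, 0.73 and 0.45). With the series matrix values 20 of 20 rose and 1 difference was called. After quantile normalization and after median centring 17 rose and 1 fell, and without starved replicate 2 18 rose and 1 fell. The lysosomal protease CtsF rose from 2413, 2510.1 and 2318 to 9022, 8607 and 8473 (log2 change 1.85 ± 0.07, adjusted p = 1.3e-08) and CtsL1 rose from 4424, 4038 and 4357 to 11605, 11576 and 10834 (log2 change 1.41 ± 0.07, adjusted p = 4.13e-08). LManIII, a lysosomal mannosidase, rose from 635, 325 and 559 to 2434, 1878 and 2171 (log2 change 2.14 ± 0.38, adjusted p = 0.0004), with fed replicate 2 the lowest. The subunits of the proton pump mostly did not pass the test, and of 24 lysosomal members 10 rose and 1 fell (18 rose after quantile normalization).

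**Figure D3:**
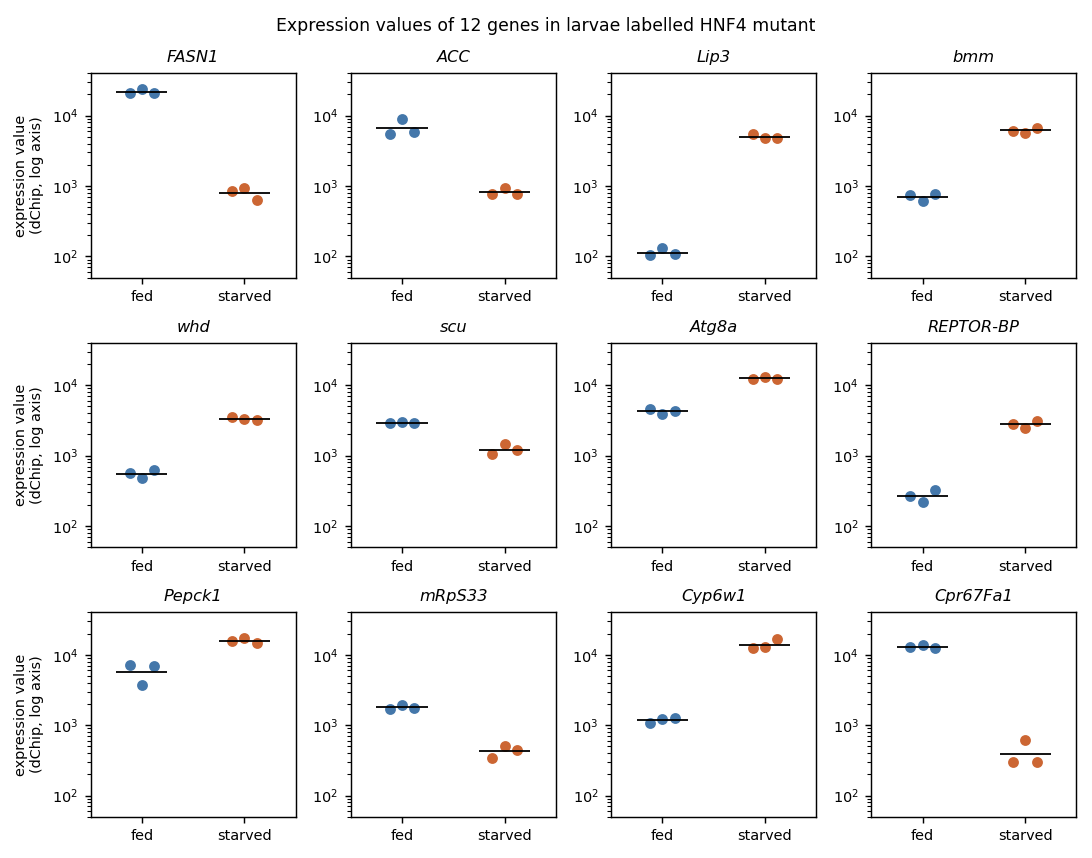
dChip intensity on a log axis of 12 genes in each of the 3 fed and 3 starved mutant arrays; a point is an array and a bar the geometric mean of the group. The groups do not overlap for any of the 12 genes, which holds for 80.6% of all 9669 probe sets.

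Genes of protein synthesis in mitochondria and in the cytosol parted. mRpS33, a protein of the small mitochondrial ribosomal subunit, read 1701, 1947 and 1728 when fed and 342, 507 and 438 when starved (log2 change -2.08 ± 0.15, adjusted p = 5.25e-07). mRpL12, of the large subunit, fell from 2368, 3685 and 3436 to 729, 1015 and 849 (log2 change -1.86 ± 0.24, adjusted p = 3.79e-05), and mRpL14 fell from 1186, 1391 and 1295 to 328, 388 and 375 (log2 change -1.83 ± 0.13, adjusted p = 3.83e-07). Of 66 measured mitochondrial ribosomal genes 63 fell, 37 of them at least 2-fold, and 0 rose, also at an unadjusted p under 0.05 (limma); the median was -1.11, and 62 fell with the series matrix values. The 3 others, mRpS5, mRpS9 and mRpL28, did not pass the test. The cytosolic ribosomal genes moved far less: of 37 measured, 5 rose and 0 fell, also at an unadjusted p, with a median of 0.04, which turned to -0.09 after median centring. The 5 that rose were the paralogs RpL24-like, RpL7-like, RpL37-2, RpS5b and RpS10a, of which RpL24-like, known for its part in ribosome assembly, went from 1869, 2397 and 2364 to 8069.8, 4989 and 6702 (log2 change 1.56 ± 0.20, adjusted p = 3.33e-05). The series matrix called 9 of them higher and quantile normalization 12. Most of these probe sets are near the top of the scale, and signals there moved little in general: of the 51 genes with a mean of 18000 or more, 29.4% were called, against 76.6% of all genes.

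Translation factors and charging enzymes changed unequally. eEF1delta, a subunit of the elongation factor exchange complex, went from 8905, 9844 and 10016 to 2867, 3399 and 3024 (log2 change -1.63 ± 0.13, adjusted p = 1.02e-06), and eIF2beta from 6486, 7835 and 7040.4 to 2706, 3023 and 2792 (log2 change -1.32 ± 0.14, adjusted p = 7.01e-06). The eIF3 subunits eIF3l and eIF3m rose by 0.83 ± 0.15 and 0.77 ± 0.17. Of 28 factors 8 rose and 9 fell. The number that rose was 5 without fed replicate 1 and 5 after median centring. Among charging enzymes, ArgRS, the arginyl-tRNA synthetase, fell from 1598, 1897 and 1767 to 685, 731 and 721 (log2 change -1.30 ± 0.11, adjusted p = 1.97e-06), and 12 of 18 synthetases fell and 1 rose. Ribosome assembly was split: NHP2, a protein of the guide RNA particles, fell from 2496, 4109 and 3156 to 1544, 1306 and 1693 (log2 change -1.08 ± 0.21, adjusted p = 0.00084), while Non1, a nucleolar GTPase, rose from 2044, 2287 and 2333 to 10957, 7428 and 9237 (log2 change 2.04 ± 0.15, adjusted p = 5.07e-07), with 15 of 33 lower and 5 higher. The proteasome fell as a body, 23 of 26 subunits lower and 0 higher, also at an unadjusted p, with a median of -0.61; Prosalpha4, a core subunit, went from 2648, 2818 and 2783 to 1366, 1367 and 1279 (log2 change -1.04 ± 0.07, adjusted p = 3.85e-07).

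Respiration and DNA replication genes also fell, by different amounts. Of 50 nuclear genes of the respiratory chain and ATP synthase 45 fell and 1, ND-51, rose (log2 change 0.25 ± 0.07), none by 2-fold, with a median of -0.44. COX7C, a subunit of cytochrome oxidase, read 11306, 10005 and 10955 and 5676, 6352 and 6331 (log2 change -0.81 ± 0.08, adjusted p = 6.63e-06), and that is the deepest fall of the list. Both statements hold for the brightest probe set of each gene. A dimmer probe set of ND-ACP changed by -1.05 ± 0.11, past 2-fold, where its brightest changed by -0.66. 33 of the 50 fell with the series matrix values. RnrL, the large subunit of ribonucleotide reductase, read 1259, 1768 and 1432 when fed and 278, 357 and 309 when starved (log2 change -2.23 ± 0.19, adjusted p = 1.42e-06), and PCNA, the clamp of DNA polymerase, read 1462, 1726 and 1543 and 356, 455 and 392 (log2 change -1.98 ± 0.13, adjusted p = 2.5e-07). The helicase subunits dpa, Mcm3, Mcm5 and Mcm6 fell with log2 changes of -1.26, -1.21, -1.10 and -1.14. Of 27 replication and cell cycle genes 25 fell and 0 rose, also at an unadjusted p. The median of the list was -0.77 in mutants and -0.63 in controls, and 0 members were called for the difference, also at an unadjusted p, where 2.84% of all genes were called.

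Cuticle proteins held the 3 deepest falls among called genes whose groups did not overlap, and FASN1 was next. Cpr67Fa1, a chitin-binding cuticle protein, read 12827, 13646 and 12412 on fed and 303, 616 and 301 on starved arrays (log2 change -5.08 ± 0.42, adjusted p = 1.3e-06). Lcp65Af, a larval cuticle protein, read 11889, 18187 and 16259.7 and 367, 541 and 686 (log2 change -4.89 ± 0.50, adjusted p = 6.35e-06), and Lcp65Ae read 11339, 11098 and 10246 and 244, 624 and 365 (log2 change -4.83 ± 0.40, adjusted p = 1.28e-06). Starved values of these 3 genes ran from 244 to 686, against array medians of 539 to 545. Of 75 measured cuticle genes 52 fell and 3 rose, with a median of -0.72 in mutants and -0.31 in controls. Among those that rose, Cpr49Ac went from 2713, 609 and 1499 to 6943, 8023 and 7937 (log2 change 2.49 ± 0.46, adjusted p = 0.000534), and Cpr47Eb from 2117, 1653 and 2124 to 8556, 10074 and 9752 (log2 change 2.27 ± 0.13, adjusted p = 1.12e-07). In controls Cpr67Fa1 read 3534, 6091 and 7232 and 1679, 607 and 1859, a log2 change of -2.12 ± 0.42, and the difference was called (-2.96 ± 0.59, adjusted p = 0.0318). The same held for Cpr78Cc, with -3.11 ± 0.23 in mutants and -1.18 ± 0.23 in controls (difference -1.93 ± 0.32, adjusted p = 0.0139). The labels give the stage of all 4 groups only as L3 or mid-L3, with no hours since the molt.

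Cytochrome P450 genes, whose products oxidise hormones, fatty acids and foreign compounds, rose more often than they fell, and for some the response differed from that of controls. Cyp6w1 read 1058, 1217 and 1255 in fed and 12456, 12703 and 16548 in starved mutants (log2 change 3.55 ± 0.16, adjusted p = 2.77e-08), and 703, 534 and 508 in fed and 556, 751 and 734 in starved controls. Cyp6a2 read 338, 328 and 390.5 and 5157, 4387 and 7847 in mutants (log2 change 4.001 ± 0.21, adjusted p = 6.49e-08), and 301, 244 and 279.9 and 426, 309 and 482 in controls. Cyp6a8 read 1184, 1048 and 1333 and 8290.3, 9841 and 13514 in mutants (log2 change 3.13 ± 0.17, adjusted p = 7.22e-08), and 1206, 1042 and 959 and 679, 562 and 586 in controls. For all 3, starved mutants stood apart from the 3 other groups. The difference between the responses was 3.33 ± 0.23, adjusted p = 5.79e-05 for Cyp6w1, 3.46 ± 0.30, adjusted p = 0.000233 for Cyp6a2 and 3.94 ± 0.24, adjusted p = 3.16e-05 for Cyp6a8, whose control change was a log2 of -0.81 ± 0.17. Cyp4ac3 rose in both genotypes, from 267, 183 and 238 to 4723, 3193 and 4377 in mutants (log2 change 4.16 ± 0.20, adjusted p = 3.33e-08), and Cyp6g1, known for insecticide resistance, rose from 687, 313 and 750 to 2894, 5225 and 3836 (log2 change 2.83 ± 0.45, adjusted p = 0.000181). Cyp310a1 fell from 1005, 916 and 884 to 122, 128 and 103 (log2 change -2.997 ± 0.10, adjusted p = 6.09e-09). Of 63 measured genes 32 rose, 22 of them at least 2-fold, and 8 fell (5 with the series matrix values). The difference from controls was called higher for 8 (4 with the series matrix values) and lower for 1, Cyp4e3, where 2.84% of all genes were called. Neighbouring members of the Cyp6a group are close in sequence and can share probe signal.

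Among conjugating enzymes the glutathione S-transferases divided by gene. GstD4 fell from 756, 538 and 779.9 to 83.2, 265 and 109.6 (log2 change -2.35 ± 0.42, adjusted p = 0.000383) and GstE9 from 4086, 4281 and 5589 to 1299.7, 2029 and 1585 (log2 change -1.52 ± 0.17, adjusted p = 1.16e-05), while GstT4 rose from 1884, 1597 and 2029.9 to 5152, 6619 and 5277 (log2 change 1.63 ± 0.14, adjusted p = 2.05e-06). Of 56 glutathione S-transferases and UDP-glycosyltransferases, listed together, 30 fell and 10 rose, with a median of -0.39. GstD3 rose in mutants, from 1061, 1049 and 1192 to 2337, 2995 and 2982 (log2 change 1.33 ± 0.12, adjusted p = 1.92e-06), and fell in controls, from 1346, 1545 and 1247 to 978, 866 and 932 (-0.57 ± 0.12), a called difference (1.90 ± 0.16, adjusted p = 0.000233). GstD2 read 2349, 2903 and 3735 and 3063, 5410.5 and 3825 in mutants, a change that did not pass the test (log2 change 0.44 ± 0.20, adjusted p = 0.0664), where controls went from 3529, 3123 and 2851 to 946, 1001 and 1032 (-1.67 ± 0.20; difference 2.11 ± 0.28, adjusted p = 0.00532). The GstD genes lie together and are close in sequence. Jheh2, a juvenile hormone epoxide hydrolase, rose by 0.62 ± 0.14 in mutants and fell in controls (-0.59 ± 0.14; difference 1.21 ± 0.20, adjusted p = 0.0129). In the series matrix alone, Keap1, which holds back the detoxification factor cnc, read 163, 179 and 183 on fed and 725, 772 and 1331 on starved mutant arrays (log2 change 2.38 ± 0.25, adjusted p = 0.000118), and cnc itself rose in the dChip table from 2574, 2356 and 2355 to 5629, 5071 and 5594 (log2 change 1.16 ± 0.09, adjusted p = 7.52e-07).

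Immune genes rose. Drs, the antifungal peptide drosomycin, read 857, 2316 and 855 when fed and 6299, 17129 and 11663 when starved (log2 change 3.18 ± 0.57, adjusted p = 0.000423). BomS2, a short secreted peptide of the Toll pathway, read 51.6, 682 and 98.1 and 2728, 1708 and 3115 (log2 change 4.01 ± 1.12, adjusted p = 0.00689), and BomS6 read 161, 525 and 189.8 and 5270, 2661 and 3237 (log2 change 3.82 ± 0.41, adjusted p = 9.95e-06). Fed replicate 2 had the highest fed level of both BomS genes, which are close in sequence, and the groups still did not overlap. PGRP-LF, a receptor that restrains the immune deficiency pathway, rose from 210, 139.8 and 183 to 754, 799.6 and 827 (log2 change 2.18 ± 0.13, adjusted p = 1.48e-07). Of 18 measured members 14 rose and 0 fell, also at an unadjusted p, a median of 1.77 against 2.31 in controls. Of 5 further members found only in the series matrix 1 rose and 4 were not called. Chaperones mostly fell: Hsp60A, of the mitochondrial matrix, from 6593, 10813 and 8919 to 2026, 2769 and 1973 (log2 change -1.95 ± 0.26, adjusted p = 4.64e-05) and Hsc70-3, the chaperone BiP of the endoplasmic reticulum, from 13692, 13062 and 12448 to 3386, 5488 and 3501 (log2 change -1.70 ± 0.15, adjusted p = 2.25e-06). The small heat shock gene Hsp26 rose from 1220.2, 1099 and 883 to 2566, 3349 and 2689 (log2 change 1.43 ± 0.15, adjusted p = 7.52e-06). Of 12 chaperone genes 7 fell and 3 rose (4 fell with the series matrix values). Among antioxidant enzymes Prx3, the mitochondrial peroxiredoxin, fell from 3312, 3859 and 3528 to 1271, 1485 and 1516 (log2 change -1.33 ± 0.10, adjusted p = 8.32e-07), Gclc, which begins glutathione synthesis, rose (1.12 ± 0.18), and 5 of 10 fell and 3 rose.

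A few regulators and secreted carriers changed strongly. vri, a repressor of the circadian clock, read 117, 40.1 and 49.6 on fed and 851, 750.2 and 921 on starved arrays (log2 change 3.77 ± 0.37, adjusted p = 4.56e-06), and tim, a clock component, fell from 133, 113 and 144 to 50.6, 70.7 and 58.9 (log2 change -1.12 ± 0.13, adjusted p = 2.05e-05); both are dim in 1 of the 2 states. Kr-h1, a factor induced by juvenile hormone, rose from 282, 312 and 323 to 973, 874 and 958 (log2 change 1.61 ± 0.09, adjusted p = 6.67e-08), and the nuclear receptor ftz-f1 rose by 1.24 ± 0.18. Hr38, an orphan nuclear receptor, fell from 205, 224 and 217 to 64.2, 68.3 and 75.4 (log2 change -1.64 ± 0.11, adjusted p = 3.91e-07). Of 16 nuclear receptor and ecdysone genes 8 rose, Hnf4 among them, and 3 fell. Among odorant-binding proteins, small carriers also made outside the antenna, Obp56a fell from 5419.6, 6723 and 4956 to 736, 1301 and 490 (log2 change -2.86 ± 0.31, adjusted p = 1.03e-05) and Obp28a rose from 628, 677 and 704 to 2337, 1468 and 2504 (log2 change 1.61 ± 0.17, adjusted p = 6.56e-06). Obp99b read 10822, 153 and 605 and 78.1, 131 and 77.7 (log2 change -3.43 ± 1.42, adjusted p = 0.0456); fed replicate 1 was the only array far above the rest, and without it the change was -1.72 and was not called. The call was lost on leaving out any of 8 of the 12 arrays. Of 22 measured members 11 fell (7 with the series matrix values) and 7 rose.

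Markers of single tissues and cell types moved in several directions beside these groups. For hemocytes 7 of 10 markers fell and 2 rose; PPO1, a prophenoloxidase of crystal cells, went from 2189, 1229.9 and 2079.8 to 281, 467 and 240.3 (log2 change -2.49 ± 0.29, adjusted p = 1.63e-05), while crq, a scavenger receptor, rose (1.03 ± 0.21). The summed level of the 10 was 7909 to 10290 on fed and 5045 to 6669 on starved arrays. For the basement membrane, made largely by fat body and hemocytes, 7 of 8 fell and 0 rose, also at an unadjusted p; vkg, a collagen chain, went from 9692, 12799.6 and 10765 to 4706, 5503 and 4138 (log2 change -1.21 ± 0.13, adjusted p = 9.44e-06), more than in controls (-0.37 ± 0.13; difference -0.84 ± 0.18, adjusted p = 0.0414). In the fat body list, regucalcin fell (-1.21 ± 0.14) and apolpp fell (-0.51 ± 0.11, lost with the series matrix values), and Lsp2 did not pass the test (log2 change -2.25 ± 1.54, adjusted p = 0.2). For neurons and glia 6 of 9 rose and 2 fell, Snap25 by 1.47 ± 0.16, and brp and nSyb changed sign with the series matrix values. For muscle 2 of 11 rose and 3 fell, with a median of 0.08. With the series matrix values 4 rose and 0 fell, and after quantile normalization 6 rose and 2 fell. The salivary gland genes ng1, ng2 and ng3 rose (ng1 by 0.64 ± 0.22 and ng2 by 0.61 ± 0.20, each losing the call on leaving out any of 3 of the 6 mutant arrays, with changes of 0.54 to 0.61 and 0.43 to 0.52), ng3 from 5184, 7215 and 7007 to 18539, 14479 and 18558 (log2 change 1.42 ± 0.23, adjusted p = 0.000231), and the 4 glue genes of the list fell. The calls of the glue genes Sgs5, Sgs7 and Sgs8 were lost with the series matrix values. That of Sgs4 was lost after quantile normalization and on leaving out fed replicate 3 or starved replicate 1. For oenocytes and Malpighian tubules 3 of 6 rose and 1, spidey, fell (-1.11 ± 0.10), and for male germline 2 of 9 rose and 3 fell (0 and 0 with the series matrix values). The dimmest value of any marker on a mutant array was 37.8 for those in the dChip table. Of 14 further markers found only in the series matrix, 3, Sgs1, Sgs3 and Fbp1, stayed under the floor of 16 on all 6 mutant arrays. The part of tissue proportions in the results was not tested.

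Large changes were also seen outside the lists. CG12951, a trypsin-like protease, read 89.8, 87 and 113 on fed and 4819.9, 4627 and 5213 on starved arrays, the largest rise of all genes (log2 change 5.67 ± 0.31, adjusted p = 8.65e-08). Bace, an aspartic protease, read 246, 242 and 260.2 and 5276, 4071 and 4282 (log2 change 4.18 ± 0.30, adjusted p = 4.57e-07), and CG10383 read 460.4, 413 and 466 and 6537, 5643 and 6594 (log2 change 3.81 ± 0.10, adjusted p = 2.43e-09). CG14237 read 126, 225 and 201 and 6687, 4245 and 4677 (log2 change 4.83 ± 0.47, adjusted p = 4.41e-06). Digestive trypsins and Jonah proteases gave no such common rise, since 3 of 25 rose and 8 fell; thetaTry fell from 4608, 4063 and 4103 to 561, 752 and 778 (log2 change -2.62 ± 0.19, adjusted p = 4.37e-07) and alphaTry rose from 3594, 3705 and 4996 to 12168, 10817 and 12347 (log2 change 1.54 ± 0.18, adjusted p = 1.81e-05). Among the falls, CG11892 read 2491, 1636 and 1856 and 69.6, 109 and 56.7 (log2 change -4.70 ± 0.29, adjusted p = 1.95e-07), CG9259 read 3026, 1714 and 1471 and 84.5, 85.1 and 65.7 (log2 change -4.66 ± 0.24, adjusted p = 5.51e-08), and CG10514 read 3421, 1955 and 2379.6 and 124, 244 and 117 (log2 change -4.05 ± 0.31, adjusted p = 7.7e-07). CG11892, CG9259 and CG10514 belong to a family of predicted kinases thought to act on ecdysteroids. AANATL4, an arylalkylamine acetyltransferase relative, fell by -4.52 ± 0.42. The peptidase genes CG10073 and CG10081 fell in mutants from 3594, 3604 and 3845 to 217, 277 and 121 and from 2166, 1183 and 1661 to 101, 129 and 59.7. The control changes were smaller; the log2 changes there were -1.12 ± 0.30 and -0.68 ± 0.32 (differences -3.13 ± 0.43, adjusted p = 0.00568, and -3.45 ± 0.45, adjusted p = 0.00382), and the second control change did not pass the test (adjusted p = 0.0731).

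Set against the controls, most of the mutant response was shared. The mutant and control contrasts use different arrays, and across the 7442 genes their log2 changes correlated at r = 0.914 (Spearman's 0.926), a description across genes that are not independent. In controls 68.2% of probe sets were called, 36.1% as higher and 32.1% as lower. Of 4725 genes called in both genotypes, 4706 moved the same way and 19 in opposite directions, and 978 were called in mutants only and 471 in controls only, which does not by itself show a difference. The difference of responses was called for 250 probe sets (2.59%) and 211 genes (2.84%), 149 higher and 62 lower in mutants. For genes called in both genotypes with the same sign and in the difference, 128 changed more in mutants and 13 less. FASN1 is one of the former: controls read 21799, 19291 and 23567 when fed and 4809.9, 5275 and 5002 when starved (log2 change -2.10 ± 0.13), and the difference was -2.66 ± 0.19, adjusted p = 5.79e-05. ACC changed by -1.70 ± 0.20 in controls (difference -1.30 ± 0.29, adjusted p = 0.0425). The FASN1 difference was called on leaving out any of the 12 arrays, that of ACC in 3 of 12 such fits, and the ACC call was lost with the series matrix values (adjusted p = 0.0744) and with a replicate block (adjusted p = 0.0731). nol is one of the latter; it read 13367, 14119 and 14836 in fed and 3830, 8895 and 6676 in starved mutants (-1.21 ± 0.24), and changed by -3.14 ± 0.24 in controls (difference 1.94 ± 0.34, adjusted p = 0.0165). CG5966, a lipase relative, rose less in mutants, from 111, 101 and 116 to 835, 751 and 577 (2.71 ± 0.16) against 3.73 ± 0.16 (difference -1.03 ± 0.22, adjusted p = 0.0411). CG9289 rose from 460.2, 309 and 415 to 1857, 1573 and 2287 in mutants (2.27 ± 0.16) and fell in controls from 45.9, 51 and 45.5 to 28.1, 33.9 and 34.7 (-0.56 ± 0.16; difference 2.84 ± 0.23, adjusted p = 0.000205). For Cyp4d14, CG6908 and CG2065 the mutant change did not pass the test (0.69, 0.62 and 0.42), the controls fell (-1.49, -1.71 and -1.86), and starved replicate 1 was the lowest of the starved mutant arrays for all 3. Without that array all 3 were called higher in mutants, with changes of 1.15, 1.02 and 0.79. How many differences are called depends on the arrays: the count was 447 without starved mutant replicate 2, 549 without fed control replicate 3, 81 to 174 on leaving out any other array, and 27 with the series matrix values. Of the 49 genes named for a difference, 12 kept the call with the series matrix values, among them FASN1, Cyp6w1, Cyp6a2, Cyp6a8, colt, scu and Gs2. On leaving out 1 array at a time 23 of the 49 kept the call every time, and 19 were called in 5 or fewer of the 12 fits, among them ACC, Cpr67Fa1, Npc2e, Idh, Gs1, SNF4Agamma, vkg, CG5966, Cyp4d14, CG6908, Cyp4e3 and Atg16.

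**Figure D4:**
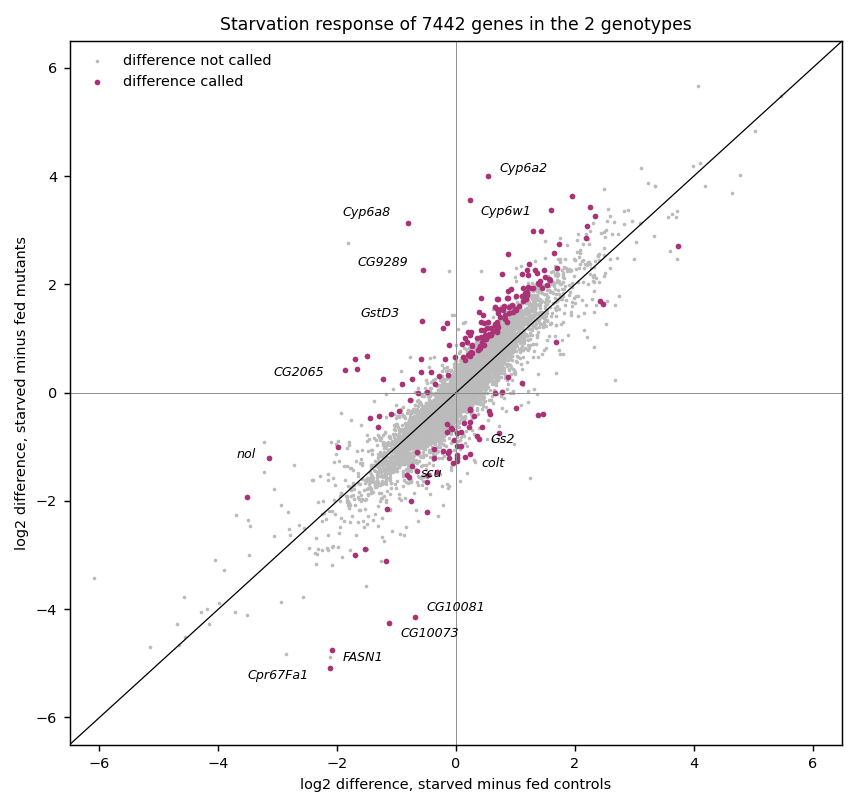
Log2 change from fed to starved of 7442 genes in controls (x axis) and in mutants (y axis), with the line of equal change. Purple points are the 211 genes whose responses differed by the test of the difference; the points cluster along the line, and Cyp6a8, Cyp6w1 and Cyp6a2 lie far above it and FASN1 and CG10073 below.

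Of the 9100 probe sets outside the dChip table, 763 were called in mutants (8.38%), 572 higher (6.29%) and 191 lower (2.1%), adjusted over all 18769 of the series matrix. These probe sets are dim, 33.7% of their values lying under the floor of 16. Of 198 listed genes found only there 17 rose and 14 fell. ImpL2, a secreted binder of insulin-like peptides, read 787, 869 and 879 on fed and 3126, 1777 and 2623 on starved mutant arrays (log2 change 1.53 ± 0.21, adjusted p = 0.000456), against a control change of 0.09 ± 0.21; the difference between the responses was 1.44 ± 0.29 with an adjusted p of 0.137. Mctp, a membrane protein with calcium-binding domains, read 101, 134 and 134 and 416, 369 and 553 (log2 change 1.85 ± 0.21, adjusted p = 0.000184). Cpr65Av, a further cuticle gene, fell from 1294, 2382 and 1920.3 to 194, 299 and 268 (log2 change -2.86 ± 0.46, adjusted p = 0.0013), and the P450 gene Cyp4ad1 fell by -1.70 ± 0.34. mRpL45, the 1 mitochondrial ribosomal gene called higher there, changed by 0.79 ± 0.11 (adjusted p = 0.000568). The share of rises over falls in these probe sets depends on scaling: median centring gave 258 higher and 589 lower, and quantile normalization 314 and 386.

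At the other end, 191 genes were not called in mutants and had a 95% interval of the mutant change within 0.25 of zero on the log2 scale. The control change was not part of this rule. The 8 brightest of them were 7 cytosolic ribosomal genes and the myosin light chain Mlc1. RpL15 read 25238, 24800.2 and 24316 on fed and 26412, 26298 and 25742 on starved mutant arrays (log2 change 0.08 ± 0.06), and Mlc1 read 26403, 25286 and 23414 and 23598, 25389.7 and 23967 (-0.04 ± 0.07). Both are among the 51 genes with a mean of 18000 or more, whose signals moved little as a group.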

How the data were processed

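Whole-larva RNA was hybridised to 12 one-colour Affymetrix arrays, grouped by their labels into 4 groups of 3. One deposited table holds intensity values that, per the file headers, the authors normalized in dChip, keeping Present probe sets; neither the version nor what counted as Present is given in the sources used here. The series matrix holds deposited processed intensity values of 18769 probe sets, after 183 array controls were left out, by a method not given in the sources used here. The tables were normalized separately and tested separately. Each of the 12 dChip columns correlated best with its own sample in the series matrix.

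Values under 16 were set to 16 before log2 was taken, and the arrays were not scaled again. All 12 arrays entered one limma model (version 3.58.1, R 4.3.3, lmFit and eBayes) with the group as its term, which left 8 residual degrees of freedom plus 3.12 from the prior. Errors are standard errors of this model. Benjamini-Hochberg adjustment was used throughout, with a threshold of 0.05. Without adjustment 7502 probe sets had p under 0.05 in starved against fed mutants, 1693 in the difference between the responses, and 1391 outside the dChip table. Probe sets were named by the platform annotation with current symbols: 7970 had 1 symbol, 248 several and 1451 none, and only the first were named. Where a gene had several probe sets the brightest on average stood for it; of 407 genes with several probe sets 47 had called probe sets of opposite sign, RpL3 and sls among the listed genes. The code was tested on simulated data.

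The members and the 45 gene lists were chosen with earlier results of these data known. Genes were named by rule: the 15 largest rises and falls without overlap between the groups, up to 8 called members of each list and all members of lists with 12 or fewer measured, Hnf4, the 10 largest differences from controls in each direction, 10 genes of opposite response, 10 rises and falls outside the dChip table and the 8 brightest stable genes. Named outside this rule, after their values were seen, were Acadvl, Akh, AkhR, Atg10, Atg12, Atg13, Atg16, Atg4a, Atg5, Atg8a, Atg8b, CG17192, CG6295, CG6296, CG9547, CPT2, Cpr47Eb, Cpr49Ac, Desat1, Fbp1, GstZ1, Ilp2, Ilp5, Ilp8, InR, Mondo, Mtpbeta, ND-51, SREBP, Sam-S, Sgs1, Sgs3, Vps15, foxo, mRpL28, mRpL45, mRpS5, mRpS9, mTor and yip2. Alternatives were a floor of 1 or of 64, the series matrix values, median centring, quantile normalization, leaving out the dimmest 40% of probe sets, a replicate block, eBayes trend and robust, array weights, the compared groups alone, a minimum change of 1.5-fold, averaging a gene's probe sets and leaving out each array. No sequences or genome coordinates are given, since the files name no genome build.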

Additional observations from a re-analysis of the deposited data

Results flagged for a closer look

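For 49 genes named here the starvation response of mutants differed from that of controls by the test of the difference itself (limma, adjusted over all 9669 probe sets), 26 lower and 23 higher in mutants. They were drawn from the genes named by rule and the members of the β-oxidation and autophagy lists, so their balance is not that of all genes. Of all 7442 genes 211 were called (2.84%), 62 lower (0.833%) and 149 higher (2%). Values are log2 differences, the mutant response minus the control response, from arrays in triplicate.

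Lower in mutants were genes of fatty acid breakdown and its supply: colt -1.37, CG4598 -1.34, yip2 -1.29, scu -1.28, Arc42 -0.84, Acadvl -0.60, Mtpbeta -0.58, Acsf2 -1.17 and Pex5 -0.59. Genes of lipid synthesis and handling were FASN1 -2.66, ACC -1.30, CG16904 -1.70, Npc2e -1.46 and CG5966 -1.03. Secreted and structural genes were Cpr67Fa1 -2.96, Cpr78Cc -1.93, vkg -0.84 and Obp19c -0.85, and peptidase genes CG10081 -3.45 and CG10073 -3.13. Enzymes were Cyp4e3 -1.80, Gs2 -1.25, Gs1 -0.96 and Idh -0.68, and genes with no role given here CG10814 -1.85 and CG14598 -1.07.

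Higher in mutants were genes of oxidation and conjugation: Cyp6a8 3.94, Cyp6a2 3.46, Cyp6w1 3.33, Cyp4d14 2.18, GstD2 2.11, GstD3 1.90, Cyp6a20 1.79, Cyp4p1 1.67 and Jheh2 1.21. Genes of autophagy and nutrient signalling were Sesn 0.78, Atg4a 0.73, SNF4Agamma 0.68, Atg18a 0.66, bigmax 0.53 and Atg16 0.45, and the maltase was Mal-B2 0.93. Others were CG9289 2.84, CG6908 2.32, CG2065 2.28, nol 1.94, CG14022 1.69, CG12702 0.97 and Nna1 0.81.

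On leaving out each of the 12 arrays in turn 23 of the 49 kept the call every time, and with the series matrix values 12 did, while 48 kept the direction there. The exception was Obp19c, at 0.13. With the replicate number as a block 33 of the 49 were called.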

How the results depend on the processing

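The count of called probe sets, 7322, was 4463 without the dimmest 40% of probe sets, where fewer were tested, 2263 when a change beyond 1.5-fold was asked for, and 6653 to 7554 on leaving out 1 array. The count with at least a 2-fold change, 1994, was 1884 to 2201 on leaving out 1 array. Median centring moved the median change of all probe sets from -0.04 to -0.17 and the series matrix put it at 0.12. The called probe sets were then 3084 higher and 4324 lower after centring, against 3622 and 3700, and with a 2-fold change 937 and 1080, against 1158 and 836. Outside the dChip table the count of 763 was 498 with a floor of 64, 1196 with array weights, 98 beyond 1.5-fold, and 525 to 834 on leaving out 1 array.

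The count of differences between the responses, 250, was 27 with the series matrix values, 1208 with array weights, 7 beyond 1.5-fold, 81 to 549 on leaving out 1 array and 800 without starved mutant replicate 2 and fed control replicate 3 together, a setting added after seeing the data. The fit of the compared groups alone gives no difference, and a minimum change was not run for the 2-fold count.

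With the replicate number as a block 7354 probe sets were called, 1992 of them with a 2-fold change, and 132 differences. Deviations of fed and starved mutant arrays of the same number correlated at -0.13, -0.24 and 0.03, and those of different numbers at -0.20 to 0.24. With 3 arrays per group such values cannot show whether a number stands for a shared day or batch. The labels do not say what a number shares, and the samples were not treated as pairs in the main fit.

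Of 411 named genes 360 were called, and 153 lost the call under some alternative, most of them (151) when a change beyond 1.5-fold was asked for and 43 with the series matrix values, 7 of them also with a changed sign. Among named genes called in the main fit or with the series matrix values, 9 changed sign with the latter. They were eloF -2.08, Eh 0.70, Hsc70-1 0.68, ImpL1 0.23, nSyb 2.45, brp 1.04, twe 0.45, topi 0.81 and bam 0.85. List medians larger than their spread between arrays changed sign for male germline (0.24, series matrix) and glycolysis (0.0096, quantile normalization). After median centring those of peroxins (-0.0064) and cytosolic ribosomal proteins (-0.0895) did so. Without the dimmest 40% of probe sets it was neuropeptides (-0.32) and neurons and glia (-0.0837). Some medians within that spread also changed sign. Examples are muscle (-0.0477) and translation factors (-0.0014) after median centring, and digestive proteases (0.0453) with the series matrix values. The causes were not tested. Precision is limited by 3 arrays per group and, for dim probe sets, by signal near background.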
